A study of Oryza sativa with 2 samples.

Results

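In the leaf transcriptomes of wild-type and *yl-1* rice, 128 of the 42152 rows of the deposited table carried transcript signal in 1 library and an exact 0 in the other. They are the rows with a mean of at least 1 FPKM over both libraries and exactly 1 of the values equal to 0. FPKM is the number of sequenced fragments scaled for transcript length and for the number of mapped fragments. They made up 0.879% of the 14559 rows that reached a mean of 1 FPKM, called compared rows here. Of these 128 rows, 52 (0.357% of the compared rows) were listed at 0 in the library with the wild-type label, hereafter the WT-labelled library. The other 76 (0.522%) were listed at 0 in the library with the *yl-1* label, hereafter the *yl-1*-labelled library. The rows were chosen by these same FPKM values, so their number and levels are a description and carry no test.

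Wild-type was Zhongjiazao 17, an early-season *indica* cultivar, and *yl-1* came from plants of this cultivar mutagenized with EMS, an alkylating agent that mainly causes single-base changes scattered over the genome. Leaves of 4-week-old plants gave 1 poly(A)-selected paired-end library per genotype, and the labels describe seedlings grown on medium at 26°C with 12 h of light. Each genotype having a single library, the spread between plants is unknown, and every difference below is one between these libraries only. *YL-1* itself encodes a subunit of the Mg-protoporphyrin IX monomethyl ester cyclase, an enzyme of Chl synthesis in the chloroplast.

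A rice locus ID states the chromosome and then a running number that rises along it, mostly in steps of 10, so that IDs with close numbers are neighbours on the chromosome. An expressed gene commonly sits next to silent ones, and neighbouring genes can overlap or be merged when transcripts are assembled from short reads. In a table of FPKM without read counts, an exact 0 can stand for no assigned fragment or for a level that was not estimated. The rows below are therefore given as listed at 0, with no fold change.

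FPKM summed to 738866 in the WT-labelled library and to 823855 in the *yl-1*-labelled library, with 20902 and 19955 rows above 0. The number of reads is unknown, and so is the number of fragments behind any value. Both libraries read as leaf. *PsbO*, the manganese-stabilizing protein of photosystem II, stood at 3824 and 5206 FPKM, and *PsaL* of photosystem I at 2212 and 2578 FPKM. Genotype names are those of the deposited columns. A supplementary gene table of the study prints most of its values for these libraries under the opposite genotype, and which naming is right was not tested here, so directions refer to the library label only.

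A single member of the group has a name in the sources used here. *PsbR* (LOC_Os07g05365), a small thylakoid protein associated with the oxygen-evolving complex of photosystem II, reached 7.70 FPKM in the WT-labelled library and was listed at 0 in the *yl-1*-labelled library. This was a low level for a photosystem gene, rank 7054 in the WT-labelled library, where *PsbO* stood at 3824 FPKM. Whether other rows carry *PsbR* transcripts was not tested, so the 0 describes this row only. The flanking row LOC_Os07g05360 was at 0.595 FPKM and 0 in the same order, and LOC_Os07g05370 at 0.614 and 0.168 FPKM. Neither neighbour therefore held a level near that of *PsbR* in the *yl-1*-labelled library. The other 23 of the 24 genes in that supplementary table, which were selected for Chl synthesis, chloroplast development and photosynthesis, were above 0 in both libraries. *YL-1* (LOC_Os01g17170) was at 671 FPKM in the WT-labelled library and at 1124 FPKM in the *yl-1*-labelled library. For the remaining 127 members no source used here pairs the locus ID with a name or a function, and they are described by ID.

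Most members were weakly expressed where they were present. The 52 rows listed at 0 in the WT-labelled library ranged from 2.01 to 1014 FPKM in the other library, with a median of 4.40. The 76 rows listed at 0 in the *yl-1*-labelled library ranged from 2.01 to 221 FPKM in the WT-labelled library, with a median of 3.84. Since the mean had to reach 1, no member could lie under 2 FPKM. At 10 FPKM or more there were 15 rows of the first kind and 13 of the second, while 28 and 44 rows lay under 5 FPKM. Members of the first kind held 0.185% of the FPKM sum of the *yl-1*-labelled library, and 0.0620% without the most abundant of them. Members of the second kind held 0.109% of the sum of the WT-labelled library.

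**Figure D1:**
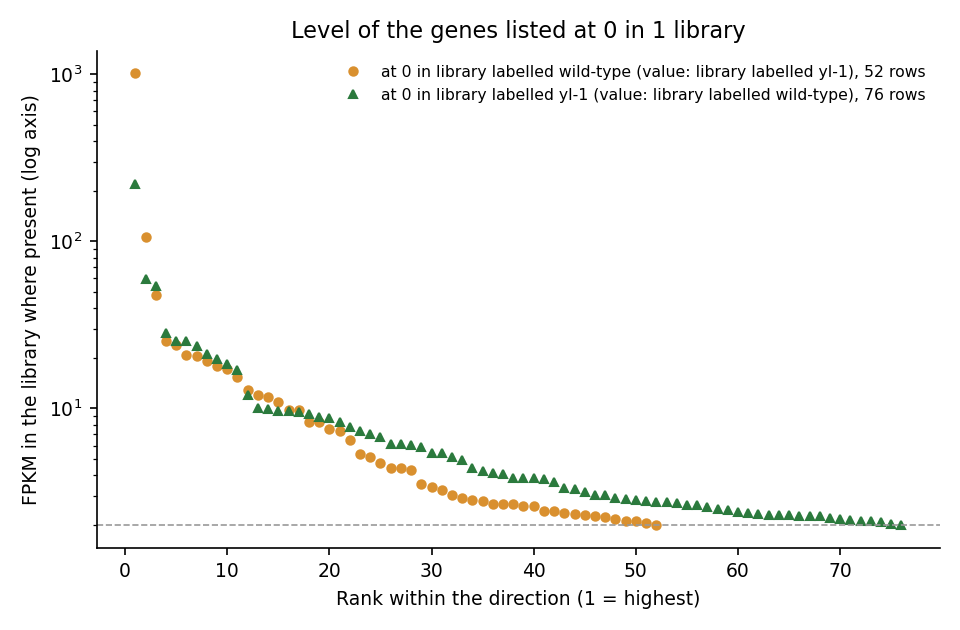
Level of each of the 128 rows in the library where it was present (FPKM, log axis) against its rank within its direction. Circles are the 52 rows listed at 0 in the WT-labelled library, triangles the 76 rows listed at 0 in the *yl-1*-labelled library, and the dashed line marks 2 FPKM, the lowest level the rule admits. A few rows stand far above the rest, led by one at 1014 FPKM.

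The most abundant member was LOC_Os01g08300, which was listed at 0 in the WT-labelled library and stood at 1014 FPKM in the *yl-1*-labelled library, where it ranked 99th of all rows. That level is close to the 1124 FPKM of *YL-1* in the same library. Its neighbours differed little between the libraries, with LOC_Os01g08290 at 3.46 and 3.23 FPKM and LOC_Os01g08310 at 27.6 and 35.9 FPKM (WT-labelled library first, as in all pairs of values below). LOC_Os10g33650 was at 0 and 107 FPKM, next to LOC_Os10g33660 at 47.4 and 51.5 FPKM. LOC_Os03g59210 was at 0 and 47.7 FPKM, next to LOC_Os03g59220 at 27.6 and 23.7 FPKM. Neighbours above 1 FPKM were thus read at like levels in both libraries in these regions.

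Levels from 17 to 26 FPKM were reached by 7 further rows listed at 0 in the WT-labelled library. LOC_Os08g37030 was at 25.5 FPKM in the *yl-1*-labelled library, beside LOC_Os08g37040, which was at 21.4 and 42.9 FPKM. LOC_Os04g31820 stood at 23.9 FPKM with no row within 10 of its number. LOC_Os09g02180 stood at 20.9 FPKM, beside LOC_Os09g02170 at 2.78 and 2.02 FPKM. LOC_Os03g55770 (20.5 FPKM) and LOC_Os10g35780 (17.1 FPKM) lay beside rows that were lower in the *yl-1*-labelled library. These were LOC_Os03g55776 at 11.3 and 6.45 FPKM and LOC_Os10g35770 at 39.6 and 23.3 FPKM. LOC_Os12g11550 (19.4 FPKM) had a single neighbouring row, which was at 0 in both libraries. LOC_Os08g01160 (17.9 FPKM) lay beside LOC_Os08g01170 at 31.7 and 30.3 FPKM.

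In the other direction the leading row was LOC_Os05g12580, at 221 FPKM in the WT-labelled library, rank 431 there, and listed at 0 in the *yl-1*-labelled library. Its neighbour LOC_Os05g12570 was at 0 in both. LOC_Os01g10880 followed with 59.6 FPKM and 0, although LOC_Os01g10890 beside it was read at 35.4 and 39.9 FPKM. LOC_Os08g28000 was at 54.2 FPKM and 0, with LOC_Os08g28010 at 5.43 and 4.83 FPKM. In these places, as beside the leading rows of the first direction, flanking loci above 1 FPKM did not follow the member to 0. A flanking locus did so beside LOC_Os01g08140, described below.

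The next rows listed at 0 in the *yl-1*-labelled library were of the same order as those of the first direction. LOC_Os04g58790 was at 28.5 FPKM in the WT-labelled library, beside LOC_Os04g58800 at 201 and 199 FPKM. LOC_Os07g03200 was at 25.4 FPKM, and its neighbour LOC_Os07g03190 was at 5.89 and 2.82 FPKM. LOC_Os06g32480 (25.3 FPKM) had no row within 10 of its number. LOC_Os04g31870 stood at 23.8 FPKM and LOC_Os11g33380 at 21.1 FPKM. Neighbours of both were under 1 FPKM in either library. LOC_Os04g40990 stood at 19.7 FPKM and LOC_Os02g05830 at 18.5 FPKM.

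Rows near the limit of the rule show how the group ends. The lowest members listed at 0 in the WT-labelled library were LOC_Os07g06560 and LOC_Os05g39180, with means of 1.00 and 1.03 FPKM. The highest rows left out were LOC_Os11g18940 and LOC_Os06g08350, with means of 0.972 and 0.934 FPKM. In the other direction LOC_Os03g05940 and LOC_Os10g31780 were just inside, at 1.00 and 1.01 FPKM, and LOC_Os06g07670 and LOC_Os03g61150 just outside, at 0.990 and 0.965 FPKM. No step in level separates the members from the rows below. Among all 42152 rows, 2531 were listed at 0 in 1 library alone, and 94.9% of them had a mean under 1 FPKM, with a median of 0.152 FPKM where present. At any level, 31.3% of such rows were at 0 in the WT-labelled library, against 40.6% of the 128 members and 15 of the 28 rows at 10 FPKM or more.

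On log2((FPKM + 1) ratio), the logarithm of the *yl-1*-labelled over the WT-labelled value after adding 1 to each, every member is past 2-fold by the rule itself. The members were 52 of the 364 compared rows past 2-fold with the higher value in the *yl-1*-labelled library (2.50% of compared rows) and 76 of the 531 with the lower value there (3.65%), or 128 of 895 in either direction (6.15%). Compared rows above 0 in both libraries were past 2-fold in 2.16%, 3.15% and 5.31% of cases in the same order.

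The share of rows listed at 0 fell with level but did not vanish among well-expressed genes. It was 2.01% of the 3582 compared rows whose higher value lay from 2 to 5 FPKM, 0.941% from 5 to 10 FPKM and 0.540% from 10 to 20 FPKM. From 20 to 50 FPKM it was 0.463%, and at 50 FPKM or more 5 of 1889 rows, or 0.265%. Small values above 0 were fewer than exact zeros among well-expressed rows, which is a description of the values that chose the members. Among the 6459 rows with at least 10 FPKM in 1 library, 28 were listed at 0 in the other, but only 7 had a lower value above 0 that was under 0.05 of the higher one. A single one of these 7, LOC_Os02g43330 at 10.7 and 0.0510 FPKM, was under 0.01. From 2 to 5 FPKM, where 72 of the members lie, 12 rows had a ratio from 0.01 to 0.05, and from 5 to 10 FPKM, where 28 lie, 2 rows did. Compared rows went down to small values only rarely, and 2 of the 14431 that were above 0 in both libraries had a lower value at or under 0.1 FPKM. Values above 0 as low as 0.00267 FPKM occur in the table. As FPKM is scaled for transcript length, that minimum over all rows is no floor for the members. Their lengths are not given, so the lowest value above 0 that each could have taken is unknown.

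**Figure D2:**
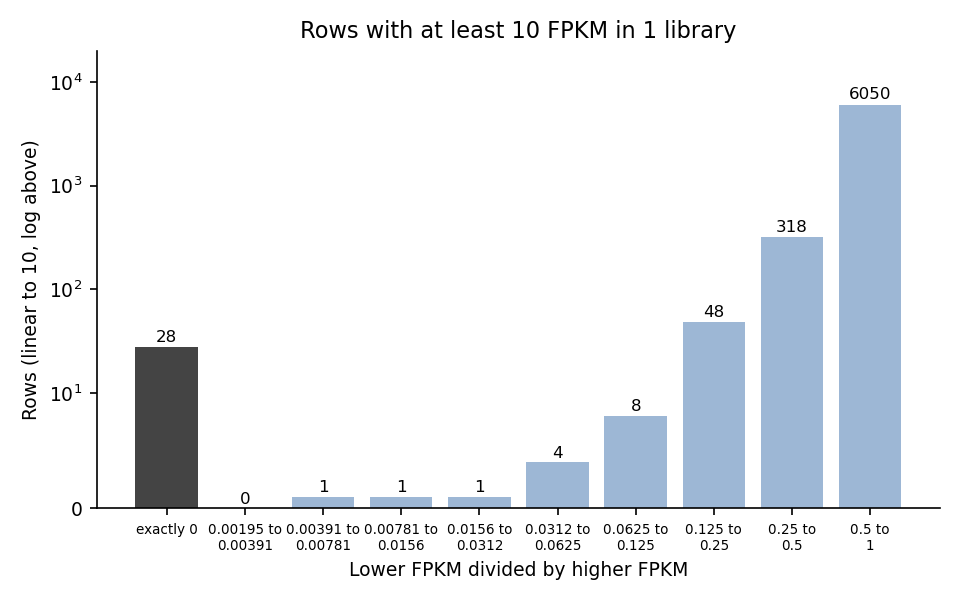
Number of rows (linear to 10, log above) by the ratio of the lower to the higher FPKM, for the 6459 rows with at least 10 FPKM in 1 library. The dark bar holds the 28 rows listed at exactly 0 in 1 library and the light bars hold rows above 0 in both, which thin out below a ratio of 0.05 before the count returns at 0.

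Members were found on all 12 chromosomes, between 6 on chromosomes 6 and 9 and 19 on chromosome 3. In relation to the compared rows of each chromosome, the share ran from 0.514% on chromosome 6 and 0.564% on chromosome 1 to 1.24% on chromosome 12 and 1.29% on chromosome 5, against 0.879% over all. Chromosome 1, which carries *YL-1*, had 3 rows listed at 0 in the WT-labelled library and 9 in the *yl-1*-labelled library. The balance of the directions differed between chromosomes. Chromosome 7 had 8 and 3 rows in the same order and chromosome 9 had 4 and 2, whereas chromosome 2 had 2 and 9 and chromosome 6 had 1 and 5. Others were more even, with 8 and 8 on chromosome 5, 4 and 4 on chromosome 10 and 7 and 12 on chromosome 3. With so few rows per chromosome and a rule that chose them, these shares are given without a test. Along the chromosomes, 33.6% of the members lay in the lowest of 4 equal ranges of locus number, 9.38% in the next, 22.7% in the one after and 34.4% in the highest. The compared rows above 0 in both libraries were spread in a like way, with 26.3%, 13.9%, 22.5% and 37.3%.

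**Figure D3:**
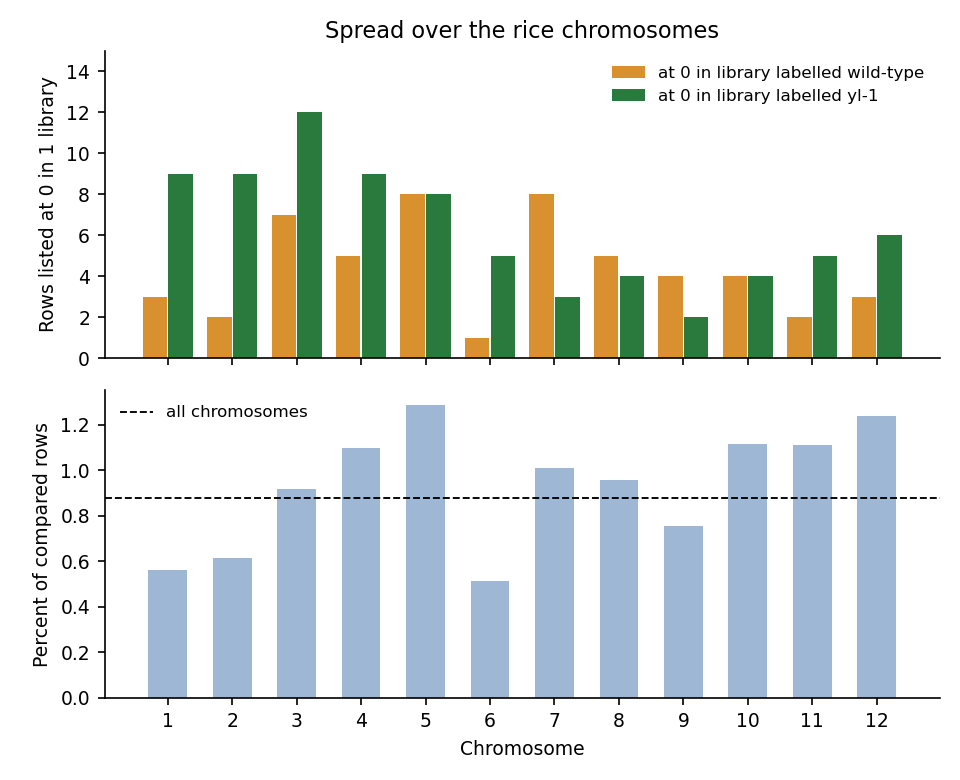
Upper panel, number of rows listed at 0 in 1 library per chromosome, by direction. Lower panel, members of both directions as a percentage of the compared rows of that chromosome, with the dashed line at 0.879% for all chromosomes. Every chromosome holds members of both directions, and chromosome 5 has the highest share, 1.29%.

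Whether a neighbouring locus carried the missing signal was read from the rows within 10 of a member's locus number. Neighbouring rows existed for 122 of the 128 members. For 67 members at least 1 neighbour stood at 1 FPKM or more in the library that listed the member at 0. These were 25 of the 52 members at 0 in the WT-labelled library (48.1%) and 42 of the 76 in the other direction (55.3%). Such a neighbour was not more frequent beside members than elsewhere. Among the 14431 compared rows above 0 in both libraries, 61.7% had a neighbour at this level in the WT-labelled library and 61.6% in the *yl-1*-labelled library. Neighbours with at least 0.5 times the level of the member itself were found for 51 members, or 39.8%, against 43.0% and 42.9% in those rows. That bar rises with the level of the row itself, and most members were weakly expressed. These shares therefore do not compare like with like. At the other extreme, all neighbours of 33 members (25.8%) were at 0 in both libraries, against 17.2% of those rows. None of the shares set beside the members here was limited to rows of a like level.

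Neighbours that were read in both libraries mostly stood at like levels. Of 219 neighbouring rows, 93 were at 0 in both libraries and 85 had a mean of at least 1 FPKM with both values above 0. Only 3 of these 85 (3.53%) were past 2-fold on log2((FPKM + 1) ratio), against 5.31% of all compared rows above 0 in both. They were LOC_Os04g54610 at 13.0 and 42.3 FPKM, LOC_Os02g51350 at 154 and 66.1 FPKM, and LOC_Os03g60570 at 3.91 and 0.156 FPKM. In these 3 places the neighbour was lower in the library that listed the member at 0. Neighbours of members at 0 in the WT-labelled library had a median log2 ratio of 0.19, with 22 of 32 higher in the *yl-1*-labelled library. Those of the other direction had a median of 0.030 (31 of 54 higher), and all compared rows above 0 in both had 0.014. With the libraries rescaled to the same FPKM sum the medians became 0.055, -0.095 and -0.12, so that the sign of the last 2 depends on the scaling. A difference between these medians was not tested.

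**Figure D4:**
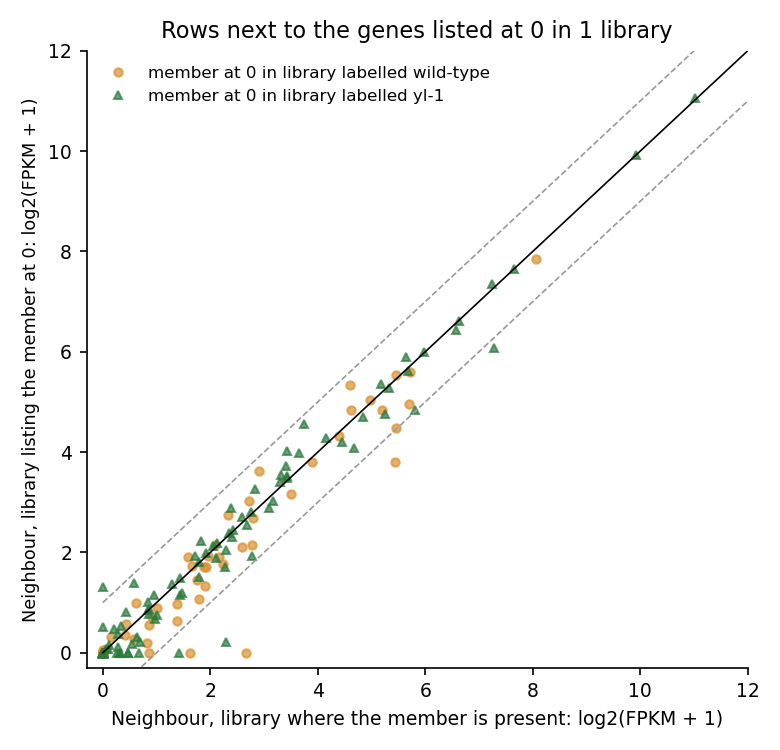
Rows within 10 of a member's locus number, plotted as log2(FPKM + 1) in the library listing the member at 0 against log2(FPKM + 1) in the library where the member was present. Circles are neighbours of members at 0 in the WT-labelled library, triangles neighbours of the other direction. The solid line marks equal values and dashed lines a 2-fold difference. Most neighbours lie near the line of equal values, and 1 neighbour above 1 FPKM lies on the vertical axis, LOC_Os02g35740 at 1.49 FPKM.

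An exchange between neighbours, with the second locus at 0 where the first was read, was found for a single member. LOC_Os02g35730 was at 4.22 and 0 FPKM, and LOC_Os02g35740 at 0 and 1.49 FPKM. This is 1 of 128 members. Rows above 0 in both libraries had a neighbour of this kind in 0.832% (at 0 in the *yl-1*-labelled library) and 0.547% (at 0 in the WT-labelled library) of cases. Neighbours listed at 0 in the same library as the member, with at least 1 FPKM in the other, were found for 3 members. They were 2 of the 52 at 0 in the WT-labelled library, which are neighbours of each other, and 1 of the 76 in the other direction. Of the rows above 0 in both libraries, 0.547% and 0.832% had such a neighbour in the same order, and with so few members the shares are given without a comparison. LOC_Os05g39180 and LOC_Os05g39190, both members, stood at 2.06 and 5.30 FPKM in the *yl-1*-labelled library and were listed at 0 in the other. LOC_Os01g08140 and LOC_Os01g08130 were at 2.31 and 1.68 FPKM in the WT-labelled library and at 0 in the *yl-1*-labelled library.

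A wider window can only raise the count of exchanges, and no frequency by distance was computed. Within 50 of the locus number, 8 members had a row at 0 the other way round with at least 1 FPKM, namely 4 of 52 (7.69%) and 4 of 76 (5.26%). Both loci of a pair are counted where both are members. Rows above 0 in both libraries cannot be part of an exchange, but had such a row nearby in 3.93% and 2.62% of cases. LOC_Os04g31820 and LOC_Os04g31870 stand out among the 8 members and were singled out after their values were seen. The first was at 0 and 23.9 FPKM and the second at 23.8 and 0 FPKM, and the only row numbered between them, LOC_Os04g31840, was at 0 in both libraries. LOC_Os03g60540 at 0 and 2.60 FPKM and LOC_Os03g60560 at 2.81 and 0 FPKM form a second such pair, but the locus between them, LOC_Os03g60550, was read at 2.29 and 2.81 FPKM. In the remaining cases LOC_Os04g53150, LOC_Os07g41400 and LOC_Os09g37440 were matched by rows of 1.01 to 1.65 FPKM. The deposited table gives no sequence and no coordinates, so likeness between the loci of a pair was not examined.

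A second row of the same name was far more common among members than among other rows. The table lists 855 rows that share their name with another row. Of the members, 20 did so (15.6%), against 3.09% of the compared rows above 0 in both libraries and 3.79% of those under 20 FPKM. Seen from the other side, 20 of the 466 compared rows that share a name were listed at 0 in 1 library (4.29%), against 108 of the 14093 rows with a name of their own (0.766%). By direction these were 11 of 52 rows and 9 of 76. One locus, LOC_Os11g42570, accounts for 2 of the 20, since both of its rows were listed at 0 in the WT-labelled library, with 7.31 and 3.40 FPKM in the *yl-1*-labelled library.

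The second row was above 0 in the library that listed the member at 0 in 16 of the 20 cases, and at 1 FPKM or more in 7, which is 5.47% of all members. Among compared rows above 0 in both, 1.57% and 1.60% had a second row at that level in the WT-labelled library and the *yl-1*-labelled library. These shares depend on how often a name is shared. Counting only rows with a second row, it was 7 of 20 members. Of the 446 other rows with one, it was 227 in the WT-labelled library and 231 in the *yl-1*-labelled library. In these counts, signal in the second row was not more frequent for members, but the rows compared were not of a like level. For both rows of LOC_Os11g42570 the outcome was fixed by the rule, as each is the second row of the other. No conclusion is drawn from these counts. The second row of LOC_Os08g37030 was at 9.92 and 4.86 FPKM, below the 25.5 FPKM of the listed row. For LOC_Os02g05830 it was at 1.61 and 1.45 FPKM, and for LOC_Os01g44290 at 2.10 and 2.09 FPKM beside a listed row of 7.31 FPKM. Both second rows were thus nearly level between libraries. LOC_Os02g06970 had a listed row of 5.43 FPKM and a second row of 0.863 and 1.71 FPKM.

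In 3 loci the second row reached 0.5 times the level of the listed row in the library that listed the member at 0. LOC_Os02g26470 was listed at 3.30 and 0 FPKM, while its second row was at 2.32 and 5.31 FPKM. LOC_Os03g61060 was listed at 0 and 4.71 FPKM, and its other rows were at 4.60 and 4.37 FPKM and at 1.18 and 0.834 FPKM. LOC_Os10g33240 was listed at 0 and 4.30 FPKM, beside a second row of 2.71 and 1.76 FPKM. When the rows of a name were added together, these loci came to 5.62 and 5.31 FPKM, 5.78 and 9.91 FPKM, and 2.71 and 6.06 FPKM, each within 2-fold on log2((FPKM + 1) ratio). For LOC_Os10g33240 this rests on the added 1, as 6.06 FPKM is more than 2 times 2.71 FPKM. The other 17 of the 20 rows stayed past 2-fold after this sum.

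Of the 5 most abundant among the members with a second row, 3 had one under 1 FPKM in both libraries. The exceptions were LOC_Os08g37030 and LOC_Os02g05830 above. LOC_Os10g33650, at 0 and 107 FPKM, had a second row of 0.605 and 0.720 FPKM. LOC_Os08g01160, at 0 and 17.9 FPKM, had one of 0.803 and 0.406 FPKM, and LOC_Os03g38540, named after its values were seen and at 0 and 13.0 FPKM, one of 0.334 and 0.215 FPKM. For these loci the listed row was at 0 in the WT-labelled library, but the locus as a whole was not.

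**Figure D5:**
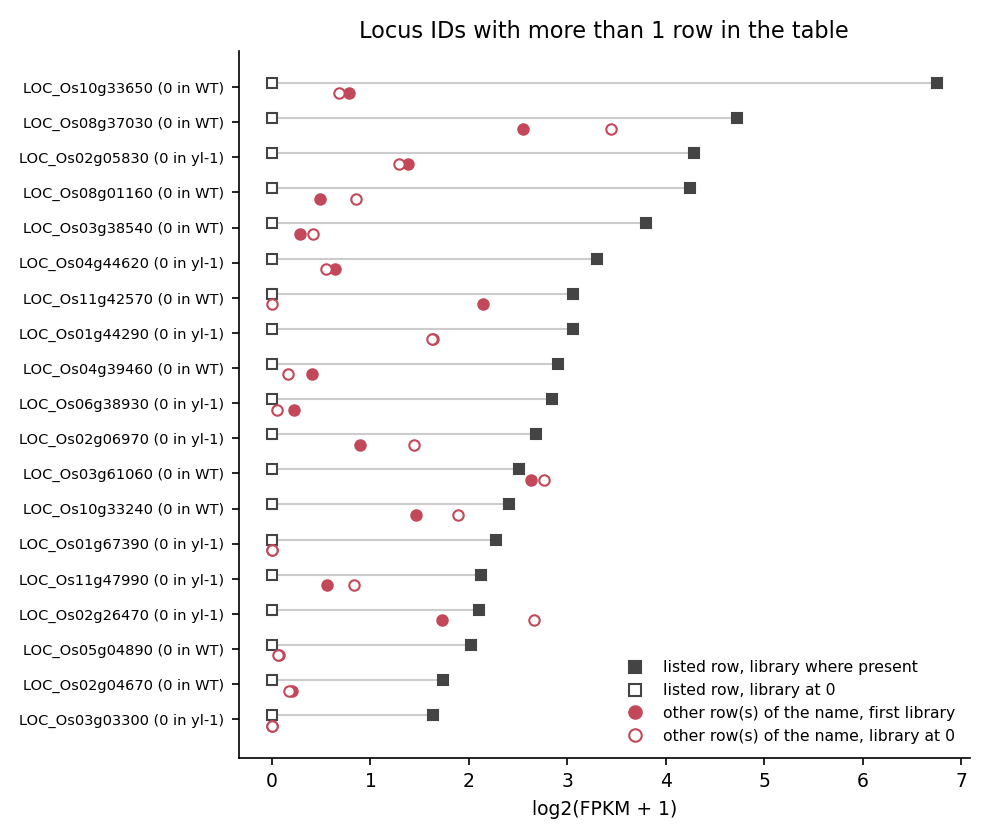
Locus IDs of members that have more than 1 row, ordered by the level of the listed row, on log2(FPKM + 1). Squares are the listed row, filled in the library where it was present and open where it was listed at 0. Circles are the other row or rows of the same name (summed where there are several), filled for the library where the listed row was present and open for the library that lists it at 0. Open circles reach the filled square only for LOC_Os03g61060 and LOC_Os02g26470.

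The deposited table runs through each chromosome in 2 series of rising locus numbers, whose meaning is not stated. Names held by exactly 2 rows had 1 row in each series in 97.7% of 388 cases, and so did 18 of the 20 members with a second row, counting the first other row. Of the members, 57.0% lay in the first series, against 50.1% of the compared rows above 0 in both. The loci of the pairs LOC_Os04g31820 with LOC_Os04g31870 and LOC_Os03g60540 with LOC_Os03g60560 also lay in different series. None of the 128 members merges several locus IDs in 1 row, a form taken by 230 of the 14559 compared rows. Locus numbers that are no multiple of 10 made up 6.25% of the members and 7.01% of the compared rows above 0 in both.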

How the data were processed

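Leaf mRNA was sequenced in 1 wild-type and 1 *yl-1* library. The authors deposited gene-level FPKM for both, and their processing notes name TopHat, Cufflinks and Cuffdiff. For these tools the version is not given in the sources used here, nor are genome build, annotation and filters. Each column was taken for the genotype in its own name, and no column of values was set aside. Depth was not recovered from the FPKM, so no counting error is given.

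Members and lists were chosen with earlier results of these data known. Named members were the one with a name in the supplementary gene table, the 10 highest per direction, those with an exchanged neighbour, those with a second row that carries signal, and rows next to the limit of the rule. Other loci were named after their values were seen. Of the 41981 locus IDs, 0 matched the RefSeq gene table of assembly ASM3414082v1, so no coordinates or sequences are given. No test was possible with 1 library per genotype. Counts of members are set beside those of compared rows above 0 in both libraries. Filters on the mean, the value taken as 0, library scaling, the neighbour window, the signal threshold and the pseudocount were varied. Counting was tested on simulated data with planted rows. Python 3.11.15, numpy 2.4.6, pandas 2.3.3 and matplotlib 3.10.9 were used.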

Additional observations from a re-analysis of the deposited data

How the results depend on the processing

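No paired analysis was possible because each genotype has 1 library. The number of members follows the filter on the mean. Against 52 rows at 0 in the WT-labelled library and 76 in the *yl-1*-labelled library, a mean of at least 0.5 FPKM gave 116 and 179, at least 2 gave 28 and 37, at least 5 gave 15 and 13, and no filter gave 792 and 1739. Counting values at or under 0.01 or 0.1 FPKM as 0, rescaling to the same sum and summing rows of a name gave 42 to 53 and 69 to 79. Members with a neighbour that carries signal numbered 67, and 120 within 50 of the locus number, 41 with a signal of at least 5 FPKM, 36 of 65 at a mean of at least 2 and 16 of 28 at a mean of at least 5. Exchanged neighbours numbered 1, and 4 within 20, 8 within 50, 5 with any value above 0 and 0 of 28 at a mean of at least 5. With the nearest measured ID on either side, chosen after the data were seen, the number was 1. Second rows with signal numbered 7, and 16 with any value above 0 and 3 with at least 0.5 times the level of the member. All 12 chromosomes held members at a mean of at least 5. Rows past 2-fold numbered 895 of 14559, and 1368 and 1429 at pseudocounts of 0.1 and 0.01. That a looser filter, window or threshold gives a higher count follows from the construction of the settings. The balance between the directions does not follow from it. That balance went from 52 and 76 to 15 and 13 at a mean of at least 5, and to 792 and 1739 with no filter, and was not tested.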
